A study of Saccharomyces cerevisiae with 91 samples.

Results

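The last 30 kb of each chromosome of budding yeast (Saccharomyces cerevisiae) held 511 of the 6719 nucleosome-depleted regions (NDRs) for which the authors deposited counts of Micro-C reads. An NDR counted as an end NDR when its position was at most 30 kb, or lay within 30 kb of the last NDR on the same chromosome. The rule uses positions only, but it was chosen with earlier results of these data known. Distances on right arms therefore run to the last NDR and not to the last base. All 32 ends of the 16 chromosomes were represented, with 9 (IL, the left end of chromosome I) to 27 (XIIR) end NDRs each. All 511 passed the filter on low counts. Positions are in sacCer3, and gene names come from a RefSeq table of the same assembly.

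Micro-C digests crosslinked chromatin with micrococcal nuclease (MNase), which cuts linker DNA, and then ligates fragments that lie close together. By the name of the deposited counts, NDR-spanning reads, a counted read joins DNA from the 2 sides of an NDR. All strains grew in YPD, at 30 °C unless stated. The labels give fixation with 3% formaldehyde for 15 min for all samples, the one without crosslinking included. The replicated groups were BY4741 wild type treated with 1.5 mM diamide for 30 min (2 replicates) or 3 ug/mL thiolutin for 45 min (2), the deletions med1d (3), rtt109d (3), rnh201d (2), rpd3d (2) and top1d (2), the histone H4 mutants H4d4-14 (2) and H4R23A (2), the temperature-sensitive allele ssu72-2 at 32 °C (3), and untreated BY4741 wild type (16). Groups with 1 column each were H4K16Q, H4Q93E, H4-WT (an S288C strain with a histone H3 and H4 plasmid), W303, wild type at 32 °C, and wild type, rgr1, rsc8-21, scc2-4 and sth1-2 held at 37 °C for 90 min. For 37 °C the labels list 3 samples of wild type and 2 of each mutant. The column names do not say whether the 1 column is a pool or a single sample. The rgr1 allele is named differently in the titles and the strain labels. BY4741 libraries were also made with MNase at 1X and 0.25X (4 size fractions of each dose, sequenced apart and summed here), without crosslinking, and without ligation. The labels also list MNase at 0.5X and 0.75X, which were not used here.

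Chromosome ends of budding yeast carry telomere repeats, followed by the X and Y' elements and a zone rich in gene families such as COS, PAU, FLO and YRF1. The silencing proteins Sir2, Sir3 and Sir4 bind near telomeres and at the silent mating-type loci HML and HMR on chromosome III, where they keep genes off. Many of these sequences exist in near-identical copies on several ends. Reads there can be shared between copies, and the sources used here do not say how the authors placed them.

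Replicates and single columns in the fit held 84223 (med1d replicate 1) to 2299974 (wild type at 37 °C) NDR-spanning reads. Wild-type replicates held 105690 to 1304896. End NDRs took 14.7% to 19.4% of the reads in ssu72-2, 5.72% to 9.2% in rtt109d, and 9.14% to 15.9% in wild type. The log2 ratio of the end median over the median of the other NDRs was 0.34 to 0.44 in rtt109d, within the range of 0.31 to 1.00 in wild type. Wild-type replicate 17 stood apart at the ends: its median level within 5 kb was 473 CPM, while the next highest replicate had 322 CPM and the lowest 121 CPM. CPM here is reads per 1000000 NDR-spanning reads after scaling of the library size. In the authors' pooled gene signals, the deleted gene was low in its own deletion, with log2 ratios to wild type of -6.64 for RTT109, -3.86 for MED1 and -4.34 for RNH201. RPD3 had a ratio of only -0.13 in the libraries labelled rpd3d, against that label. TOP1 had -0.99 in the libraries labelled top1d, with a signal of 897 there and 1380 in wild type. This drop was smaller than those of RTT109, MED1 and RNH201, and whether all these cells lack TOP1 was not tested.

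In wild type, NDRs in the outer 10 kb were spanned by far more reads than NDRs further in. The median over NDRs of the mean level was 231 CPM at 0 to 5 kb (91 NDRs), 254 CPM at 5 to 10 kb (99), 122 CPM at 10 to 15 kb (86) and 87.4 CPM at 15 to 20 kb (67). From 20 kb on the medians were 82.8 and 93.5 CPM, and the 6208 other NDRs had a median of 83.8 CPM. Of the end NDRs, 88 (17.2%) exceeded 300 CPM, while 205 of the others (3.30%) did. The median over end NDRs was above the median over the other NDRs in every replicate of every group tested and in each single column. In wild type the log2 ratio of the 2 medians was 0.31 in the lowest replicate, 0.42 in the median one and 1.00 in the highest, which was replicate 17.

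**Figure D1:**
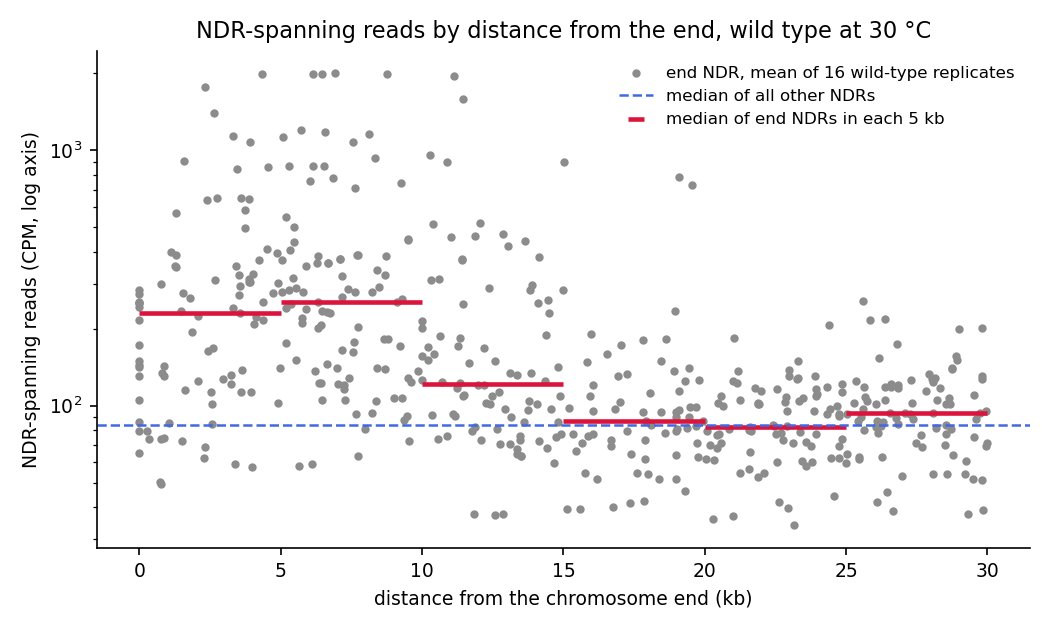
NDR-spanning reads in CPM (log axis) against the distance from the chromosome end in kb, for 511 end NDRs in wild type at 30 °C (grey points, mean of 16 replicates). Red bars are medians over NDRs in each 5 kb and the dashed line is the median of all other NDRs at 83.8 CPM. The bars reach 231 and 254 CPM in the outer 10 kb and come near the dashed line from 15 kb on.

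The outer 10 kb also varied most between replicates. Median levels at 5 to 10 kb ran from 161 to 507 CPM over the 16 wild-type replicates (341 CPM at most without replicate 17), and those at 20 to 25 kb only from 74.5 to 92.9 CPM. The coefficient of variation over replicates had a median of 39.2% for end NDRs within 10 kb, 22.6% for those at 10 to 30 kb, and 23.0% for the other NDRs. Where the boundary of 30 kb fell, levels were alike: the 20 end NDRs nearest to it had a median of 82.1 CPM and the 20 NDRs just outside had 84.2 CPM. Neighbouring NDRs on an end are not independent. A read may span several of them, but no counting rule is given and this was not tested. Over 479 adjacent pairs the Pearson correlation of log2 levels was 0.90, and across the 16 replicates the deviations of such neighbours had a median correlation of 0.82.

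VIIIR was the highest end in 16 of 16 wild-type replicates, with a median over its 15 NDRs of 1136 CPM (581 to 2631 CPM over replicates). The 6 highest end NDRs were all there and lay on 1 plateau of 1960 to 1999 CPM. They include the NDRs in front of PHO12, an acid phosphatase gene, and IMD2, an inosine monophosphate dehydrogenase gene. At the PHO12 NDR (position 551712) the lowest, median and highest replicates had 789.9, 1674 and 5727 CPM. PHO12 has a near-identical partner, PHO11, on IR, whose NDR at position 225075 averaged 255 ± 65.0 CPM (SD, n = 16). VIL (303.5 CPM), XIIL (271 CPM), XL (270 CPM) and IIL (261 CPM) followed, and the replicate ranges of these 4 ends overlapped, from 147 CPM in VIL to 800 CPM in the same end.

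**Figure D2:**
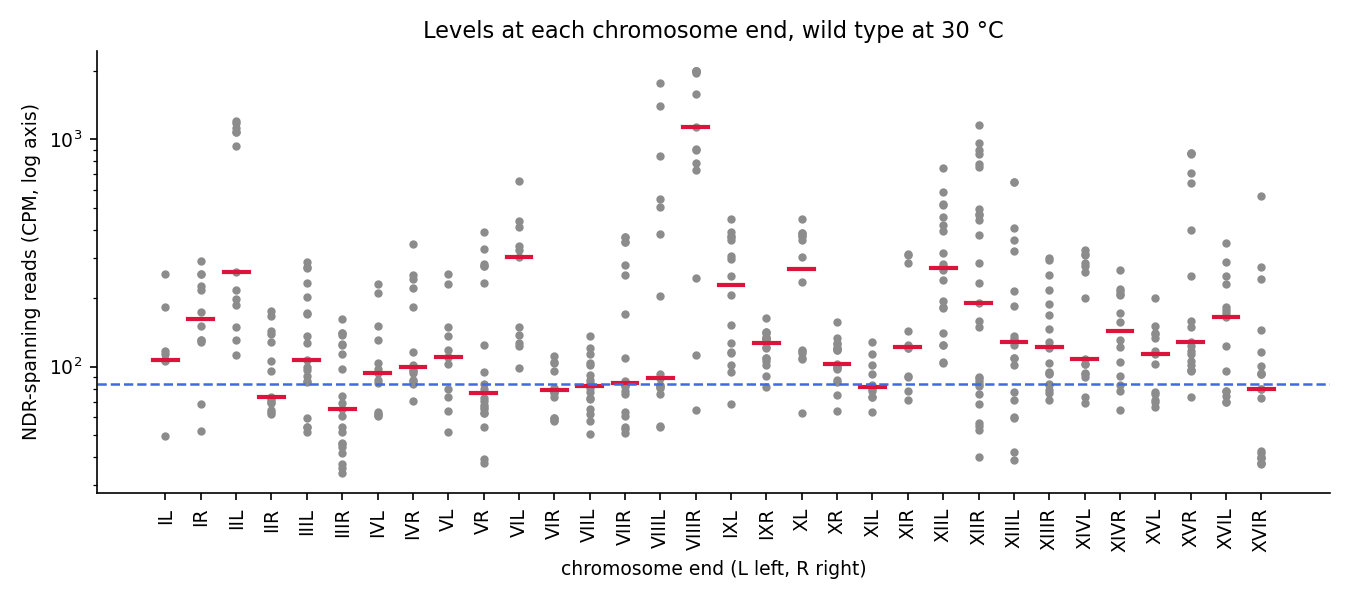
NDR-spanning reads in CPM (log axis) at each of the 32 chromosome ends in wild type at 30 °C. Points are NDRs (mean of 16 replicates), red bars the median of an end, and the dashed line the median of all other NDRs at 83.8 CPM. VIIIR lies highest at 1136 CPM and IIIR lowest at 65.3 CPM.

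Medians of 25 of the 32 ends were above that of the other NDRs. The lowest end was IIIR with 65.3 CPM over 21 NDRs (50.7 to 86.0 CPM over replicates). It was the lowest end in 7 of 16 replicates, the lowest replicate of VR was lower (34.4 CPM), and IIIR overlapped with IIR at 73.6 CPM (68.8 to 98.8 CPM). Of the 6 lowest end NDRs, 3 lay at or beside HMR on IIIR, with means of 34.0, 35.9 and 37.2 CPM. The others were 2 NDRs on XVIR, 1 of them in front of the drug-resistance transporter gene SGE1 (37.5 CPM), and the NDR of the 14-3-3 protein gene BMH1 on VR (37.5 CPM). The 6 NDRs within 2 kb of the HMR genes averaged 34.0 to 54.5 CPM, and the 5 within 2 kb of the HML genes 54.4 to 172 CPM. The NDR shared by HMLALPHA1 and HMLALPHA2 averaged 90.5 ± 13.3 CPM (SD, n = 16) and that shared by HMRA1 and HMRA2 54.5 ± 18.8 CPM.

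Fewer end NDRs than other NDRs lay at gene starts. Counting start codons at most 500 bp downstream or 50 bp upstream, 188 of 511 end NDRs (36.8%) and 3402 of the 6208 others (54.8%) were at a gene start. The median distance to the nearest start codon was 635 bp at the ends and 326 bp elsewhere, while the distance to the nearest NDR was the same (medians of 981 and 980.5 bp). A wild-type chromatin boundary from the authors' list lay within 200 bp of 28.8% of end NDRs and 35.4% of the others. Within 10 kb of the end the share was 14.7%. The authors' strength score of these boundaries had medians of 4.28 at the ends and 4.16 elsewhere.

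A library made without ligation measures reads that arise without that step. It held only 6551 NDR-spanning reads, of which 2205 (33.7%) fell on end NDRs. XIIL had 817 and XIIR 516 of these, followed by VIIIR with 216. At least 1 such read lay on 102 of 190 NDRs within 10 kb (53.7%), on 67 of 321 at 10 to 30 kb (20.9%), and on 1487 of the 6208 others (24.0%). Without crosslinking, end NDRs took 16.4% of 210503 reads. The median log2 ratio to pooled wild type was 0.28 within 10 kb, -0.88 at 10 to 30 kb, and -1.07 for the other NDRs. These are 1 library each, with no test.

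The amount of MNase moved the outer 10 kb as well. Summed over the 4 size fractions, 1X MNase was higher than 0.25X by a median log2 ratio of 0.86 within 5 kb and 0.75 at 5 to 10 kb, while the median was 0.06 at 10 to 15 kb and 0.00 beyond 60 kb. Of the 511 end NDRs, 50 were at least 2-fold higher at 1X and 0 at least 2-fold lower, where 2.04% and 0.432% of all 6719 NDRs were. The largest ratio among these, 1.77, was at the last NDR of XIR, with 185 CPM at 1X and 54.4 CPM at 0.25X. Medians differed between the size fractions, but over unequal sets of NDRs. At 1X the monomer and small fractions held 92386 and 59033 reads, and the dimer and tri- and tetramer 201754 and 183280. The cut at 20 reads therefore left fewer NDRs in the shallower fractions, and it was applied beyond 60 kb as well. Whether the fractions differ apart from depth was not tested. For NDRs with 20 reads or more, and relative to NDRs beyond 60 kb, the median log2 ratio within 10 kb was 0.78 in the dimer and 0.87 in the tri- and tetramer fraction (190 NDRs each), 0.14 in the monomer (157) and -0.12 in the small fraction (117). The share of all NDR-spanning reads that fell within 10 kb was higher at 1X in each fraction: 7.88% against 5.59% at 0.25X in the dimer, 8.55% against 6.13% in the tri- and tetramer, 7.26% against 5.70% in the monomer and 6.71% against 4.53% in the small fraction. Fractions of 1 dose are not replicates, so the difference between doses has no replicate check. The doses between, 0.5X and 0.75X, were not compared. Whether digestion differed between the groups below was not tested.

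ssu72-2 showed the most calls at the ends. Ssu72 is a phosphatase of the RNA polymerase II tail and part of the machinery that forms 3' ends of transcripts. Of 511 end NDRs, 94 were higher and 9 lower in ssu72-2 than in wild type (edgeR's quasi-likelihood test, Benjamini-Hochberg adjusted p at most 0.05 over 6719 NDRs), where 3.27% and 1.01% of all NDRs were called. The 94 calls lay on 17 ends, with log2 differences from 0.54 to 1.55, and 54 of them within 10 kb. The median log2 difference was 0.61 at 0 to 5 kb, 0.77 at 5 to 10 kb, 0.24 at 10 to 15 kb and 0.02 at 15 to 20 kb, and -0.02 beyond 60 kb.

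**Figure D3:**
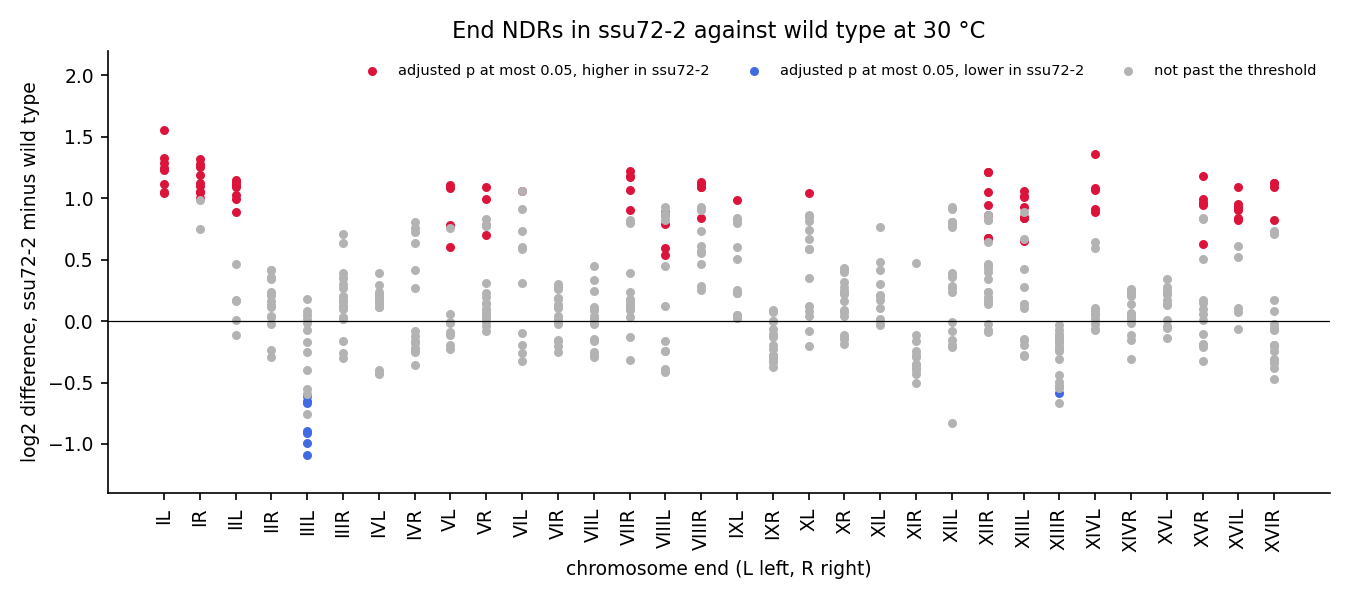
Log2 difference of NDR-spanning reads, ssu72-2 minus wild type at 30 °C, for each end NDR at the 32 chromosome ends. Red points were called higher (94), blue points lower (9) and grey points neither. All 9 NDRs of IL and 10 of 12 of IR are red, and 7 of the 9 blue points lie on IIIL.

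Chromosome I as a whole was higher in ssu72-2. Outside its ends, 74 of its 79 NDRs were called higher, with medians of log2 1.21, 1.02 and 0.97 in the 3 replicates, while in the wild-type replicates these medians ran from -0.26 to 0.30. End NDRs of chromosome I had medians of 1.21, 0.83 and 1.14, and 19 of 21 were called higher. In the authors' pooled gene signals, 78 genes of chromosome I outside the ends had a median log2 ratio of 0.94, and the other groups had medians between -0.06 and 0.04 for these genes. End NDRs of chromosome I and the rest of that chromosome thus had like values, and whether they differ was not tested. The labels give no copy number, and more copies of chromosome I and more reads per copy cannot be told apart in these counts. This holds for the 19 calls there, those at SEO1, FLO1 and PHO11 included. Without chromosome I, 75 of 490 end NDRs (15.3%) were called higher and 9 lower, while 52 of 6129 NDRs outside the ends (0.848%) were called higher and 59 lower.

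Of the 8 largest calls, 7 were on chromosome I. At position 28654 on IL the 3 ssu72-2 replicates had 385, 214 and 266 CPM, while the lowest, median and highest wild-type replicates had 72.2, 102 and 189 CPM. The groups did not overlap, and the log2 difference was 1.55 ± 0.15 (SE). Both NDRs at SEO1, a putative permease gene on IL, had differences of 1.29 and 1.25, and the 2 named NDRs inside FLO1, the flocculin gene on IR, had 1.28 and 1.26. The remaining one of the 8 was the NDR in front of YRF1-6 on XIVL, a helicase gene of the Y' elements. It had 716, 299 and 423 CPM in ssu72-2, and 73.0, 172 and 585 CPM in the lowest, median and highest wild-type replicates. Its log2 difference was 1.36 ± 0.30 (SE, adjusted p = 0.0017), but the groups overlapped through the highest wild-type library.

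All 4 end NDRs assigned to YRF1 genes rose in ssu72-2 (median log2 difference 1.22), but reads there can be shared between near-identical copies. Of the 7 COS NDRs, 3 rose, and of the 16 PAU and DAN NDRs 4 rose. Of all end NDRs 18.4% did, and 54 of the 190 within 10 kb. The share of the PAU and DAN list was thus near that of the ends. Ends with many calls were XVIL (10 of 15), IIL (8 of 13) and XIIIL (8 of 20). On IIL, replicate 1 was highest with a median log2 ratio to wild type of 1.50, against 0.31 in replicate 2 and 0.84 in replicate 3. On VIIIR, the calls were 5 and the 3 medians 1.26, 0.07 and 0.57. PHO12 was not called, and its partner PHO11 on IR was. In the authors' pooled gene signals XVIL was also higher, by a median log2 ratio of 0.44 over 10 genes. SAM3, an S-adenosylmethionine permease gene on XVIL, had 0.93, while the 12 genes of IIL had a median of 0.03. On XVIL too, more copies and more reads per copy cannot be told apart in these counts.

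The 9 lower calls were concentrated on IIIL, which had 7 of them, and 2 were on XIIIR. At position 4725 on IIIL, ssu72-2 had 113, 102 and 181 CPM, while the lowest, median and highest wild-type replicates had 136, 282 and 323 CPM. The log2 difference was -1.09 ± 0.24 (SE, adjusted p = 0.0013). The stretch includes the NDR of VBA3, a gene for a vacuolar amino acid transporter (-0.65), and the shared NDR of HMLALPHA1 and HMLALPHA2, with 54.6, 50.1 and 81.6 CPM in ssu72-2 (log2 difference -0.61 ± 0.19, adjusted p = 0.048). The highest ssu72-2 value at HML lay inside the wild-type range of 66.2 to 120 CPM.

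These calls depended on the libraries compared. Only 26 of the 94 had no overlap between ssu72-2 and any wild-type replicate, and 87 were higher in each of the 3 ssu72-2 replicates than in the wild-type replicate with the same number between strain and replicate in the column names. Without ssu72-2 replicate 1, 22 of the end NDRs were called higher, and against the single library of wild type at 32 °C, the temperature of ssu72-2, 14 were. That arm is 1 library, assumed to vary like the other groups, and it was itself below wild type at 30 °C within 5 kb, by a median log2 ratio of -0.55. Against it, the 8 largest calls had log2 differences of 0.93 to 2.34, and 6 of the 8 passed the test. Of the 94 calls, 53 were at NDRs with a read in the library without ligation and 41 at NDRs with none.

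**Figure D4:**
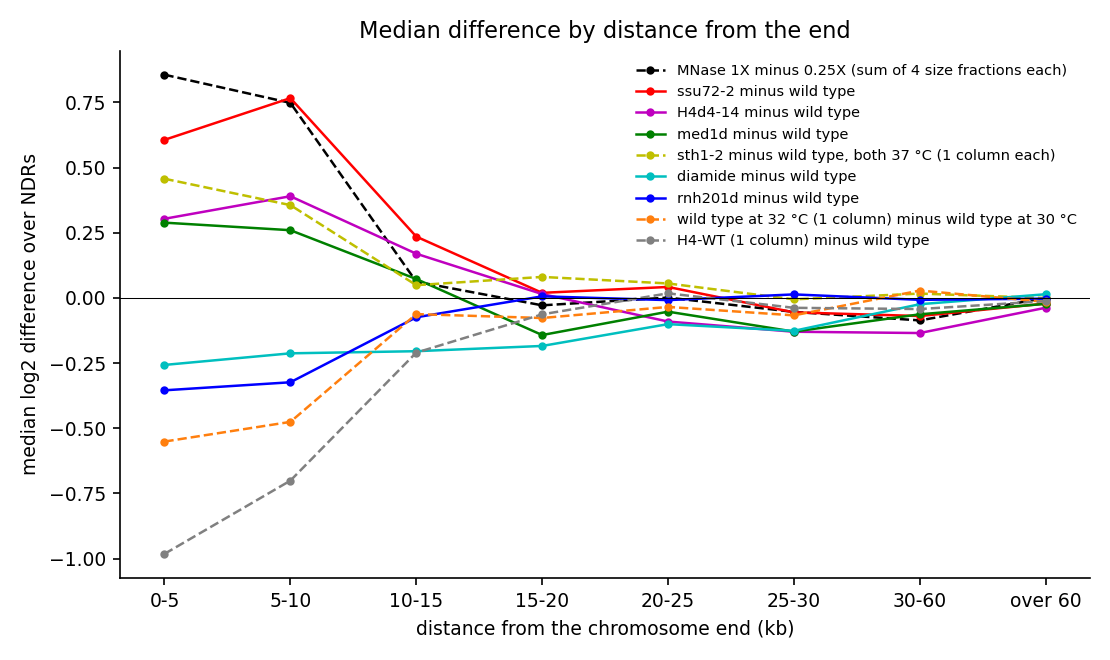
Median log2 difference over NDRs by distance from the chromosome end in kb, for groups against wild type (solid lines, replicated groups) and for single columns (dashed lines). Of the lines drawn, MNase 1X minus 0.25X (0.86 at 0 to 5 kb) and ssu72-2 (0.61) lie highest and H4-WT (-0.98) lowest, and all lie near zero from 20 kb on. H4K16Q is not drawn.

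In med1d and H4d4-14, no end NDR was called, and 0.104% and 0.0298% of all NDRs were. Med1 is a subunit of the Mediator coactivator. Unadjusted p was under 0.05 for 53 end NDRs in med1d (10.4%, and 10.0% of all NDRs) and for 31 in H4d4-14 (6.07% and 10.1%). DESeq2 called 1 end NDR in med1d and 0 in H4d4-14. The median log2 difference of the outer 5 kb was 0.29 in med1d and 0.30 in H4d4-14. H4d4-14 and H4R23A were compared here with BY4741 and not with H4-WT. H4-WT itself had a median of -0.98 there against BY4741. With 1 library it has no spread of its own, so no comparison of the mutants with H4-WT is drawn. Replicates were also set against the wild-type replicate with the same number in the column names. Medians within 10 kb were then 0.75, 0.68 and 0.43 in med1d and 0.43 and 0.76 in H4d4-14. They were 0.86, 0.18 and 0.64 in ssu72-2, 0.30 and 0.38 in rpd3d, and 0.50 and 0.19 in rtt109d replicates 2 and 3. Diamide had -0.20 and -0.07, thiolutin -0.07 and -0.52, and rnh201d -0.18 and -0.52. H4R23A had -0.09 and 0.01, and top1d replicate 2 had -0.06. With the number in the column names as a block in the fit, 85 end NDRs were called higher and 5 lower in med1d. In H4d4-14, 111 were called higher and 1 lower. Of all NDRs, 6.19% and 0.655% were then called higher and lower in med1d, and 6.89% and 0.402% in H4d4-14. The sources used here do not say what the number stands for.

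The other groups without a call at the ends were H4R23A, rnh201d and the libraries labelled top1d and rpd3d. Of all NDRs, 0.0298%, 0.0446%, 0% and 0% were called there. DESeq2 also called no end NDR in these 4 groups. Unadjusted p was under 0.05 for 35, 5, 12 and 17 end NDRs in that order (6.85%, 0.978%, 2.35% and 3.33%), and for 6.74%, 2.40%, 2.11% and 4.84% of all NDRs. In rnh201d, which lacks the catalytic subunit of ribonuclease H2, the median log2 difference was -0.35 within 5 kb and -0.32 at 5 to 10 kb, and 0.01 at 15 to 20 kb. Within 5 kb, top1d had -0.26 and H4R23A -0.21. The 2 rnh201d replicates differed by end, with -0.71 and 0.13 on IXL.

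Diamide is a thiol oxidant, and some end NDRs fell in treated cells. In diamide 21 end NDRs were lower and 1 higher than in untreated cells, where 1.77% and 2.99% of all NDRs were called. The 21 lay on 11 ends, with 0 within 10 kb, and had log2 differences from -1.01 to -0.59. Medians were -0.26 at 0 to 5 kb and -0.21 at 5 to 10 kb. They were -0.20, -0.18, -0.10 and -0.13 in the 5 kb steps from 10 to 30 kb. Wild-type replicates varied most within 10 kb, so the 0 calls there do not show smaller differences. Of all 511 end NDRs, 105 had a difference above 0 (20.5%), and the median was -0.20, while 49.4% of all NDRs were above 0. IVR and VIR had 4 lower calls each. At position 1506938 on IVR, diamide gave 39.7 and 58.8 CPM and untreated cells 86.6 CPM in the lowest, 93.6 CPM in the median and 118 CPM in the highest replicate. The groups did not overlap, and the log2 difference was -0.89 ± 0.19 (SE).

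Genes with a called NDR included AQY1, an aquaporin gene on XVIR, which had 60.7 and 38.8 CPM in diamide and 34.1, 88.2 and 198 CPM in the lowest, median and highest untreated replicate. The groups overlapped there (log2 difference -0.91 ± 0.24). The neighbouring NDR at position 920995 had the largest decrease, -1.01 ± 0.24. RPN12, a proteasome subunit gene on VIR, had 37.4 and 41.4 CPM in diamide. Untreated cells had 51.1, 71.7 and 125 CPM at RPN12 in the lowest, median and highest replicate, with no overlap (-0.89 ± 0.24). The only higher call lay inside PHO84, the high-affinity phosphate transporter gene on XIIIL (0.73 ± 0.21, adjusted p = 0.028), and it overlapped with untreated cells. Without replicate 1 of diamide there were 3 lower calls, and without replicate 2 there was 1. Leaving out 1 of 2 replicates leaves an arm of 1 library, assumed to vary like the other groups, while the log2 differences stayed at -1.13 and -0.84 at position 920995 and at -0.83 and -0.98 at RPN12.

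Thiolutin, a transcription inhibitor, gave 3 higher and 2 lower calls at the ends, where 2.43% and 1.16% of all NDRs were called. The 3 higher calls were neighbours on XIIIL, at PHO84, inside it, and at TUB3, an alpha-tubulin gene. The NDR of PHO84 had 59.2 and 98.5 CPM in thiolutin, and 22.3, 35.1 and 120 CPM in the lowest, median and highest untreated replicate, so that the groups overlapped (log2 difference 0.95 ± 0.27, adjusted p = 0.030). The lower calls were at ZRT1, a zinc transporter gene on VIIL, and at the NDR between MSC1 and RSC9 on XIIIL. ZRT1 had 37.4 and 24.6 CPM in thiolutin and 52.2, 70.6 and 87.2 CPM in the lowest, median and highest untreated replicate, with no overlap (-1.08 ± 0.26, adjusted p = 0.0082). With the number between strain and replicate in the column names as a block, the 3 XIIIL differences were only 0.13, 0.16 and 0.17 and were not called. Without thiolutin replicate 2 there were 0 higher calls and 1 lower, and without replicate 1 there were 6 higher and 10 lower.

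rtt109d had 9 lower and 3 higher calls at the ends, where 0.253% and 0.551% of all NDRs were called. Rtt109 acetylates newly made histone H3. The lower calls were on VIIL (5), IR (3) and XIIIR (1). On VIIL they form a stretch over COS12, a membrane protein gene, PAU11, a seripauperin gene, and YPS5, a gene related to aspartyl proteases. At position 6210 on VIIL, the 3 rtt109d replicates had 90.6, 11.8 and 16.8 CPM, which were 30, 3 and 7 reads. Wild type had 102, 130 and 224 CPM in the lowest, median and highest replicate. The groups did not overlap, and the log2 difference was -1.72 ± 0.25 (SE, adjusted p = 8.8e-06).

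Replicate 1 of rtt109d differed from replicates 2 and 3 at these ends, and W303 had low levels in the same places. At position 6210 the W303 library had 11.7 CPM (30 reads). At the NDR of HXT17, a hexose transporter gene on XIVR, the 3 rtt109d replicates had 109, 11.8 and 9.61 CPM, W303 had 6.64 CPM, and wild type had 51.6 CPM in its lowest and 120 CPM in its highest replicate. HXT17 did not pass the test (log2 difference -1.08, adjusted p = 0.062). Over the 14 NDRs of XIVR the median log2 ratios to wild type were 0.28, -1.16 and -1.28 in the 3 rtt109d replicates and -2.0 in W303. Those of IR were -0.08, -1.0 and -0.73 in rtt109d and -1.26 in W303. These ratios share the wild-type libraries. The labels do not give the strain background of each rtt109d replicate, and the deletion and a difference in background cannot be told apart at these ends. Without rtt109d replicate 1 there were 22 lower calls at the ends, without replicate 2 there were 3, and without replicate 3 there was 1.

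**Figure D5:**
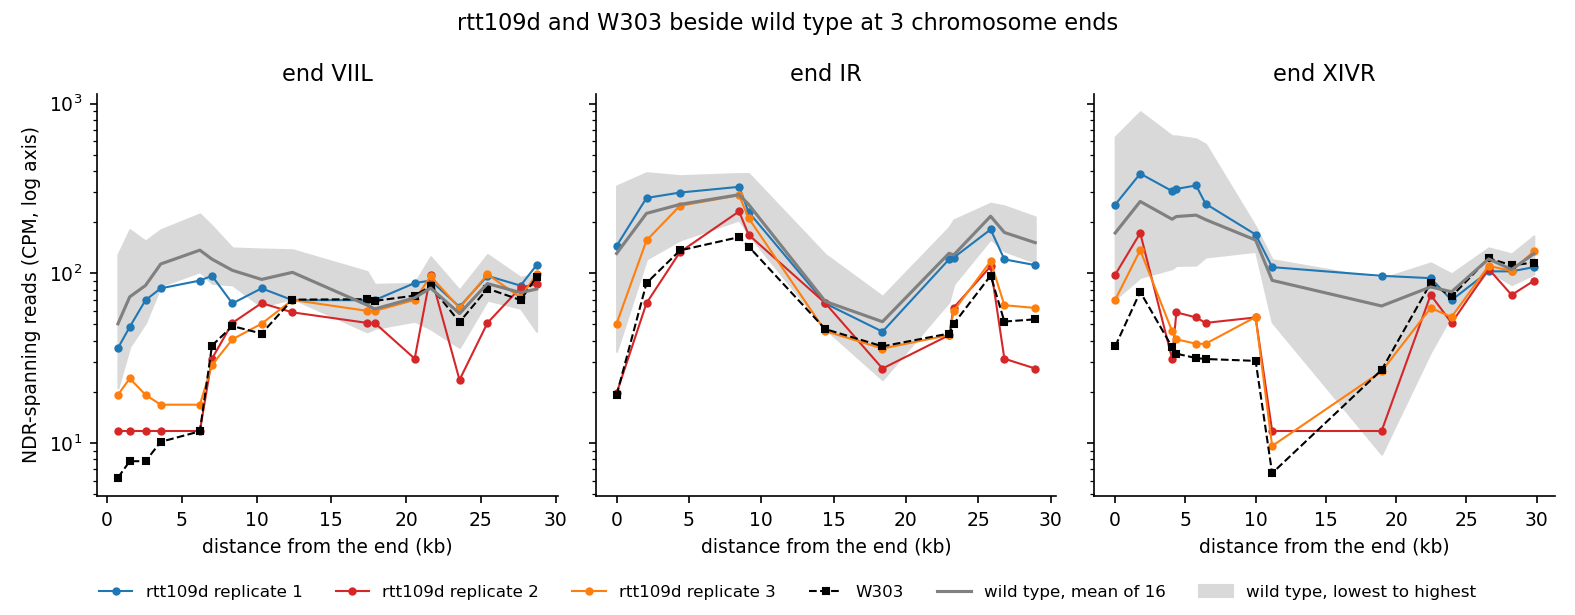
NDR-spanning reads in CPM (log axis) against the distance from the end in kb at VIIL, IR and XIVR. Coloured lines are the 3 rtt109d replicates, black squares the W303 library, the grey line the mean and the grey area the range of 16 wild-type replicates. Replicates 2 and 3 of rtt109d lie near W303 in the outer part of VIIL and XIVR (11.8 and 9.61 CPM at HXT17, with 6.64 CPM in W303), and replicate 1 lies near wild type.

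The 3 higher calls in rtt109d were all at HMR, but not every NDR there was called. The NDR shared by HMRA1 and HMRA2 did not pass the test (log2 difference 0.82, adjusted p = 0.097). Neither did those at positions 291267 (0.19) and 295550 (0.08). At position 292683 on IIIR, rtt109d had 54.4, 129 and 76.9 CPM, while wild type had 8.60, 33.8 and 52.8 CPM in the lowest, median and highest replicate. The groups did not overlap (log2 difference 1.21 ± 0.23, adjusted p = 0.00067). The NDR inside HMRA2 (1.08 ± 0.24) and the one at position 294841 (1.05 ± 0.24) moved with it, and reads may be shared among them. The HML NDRs were not called in rtt109d. The one shared by HMLALPHA1 and HMLALPHA2 had 81.5, 106 and 67.3 CPM, within the wild-type range of 66.2 to 120 CPM. DESeq2 gave no adjusted p for these 3 NDRs and log2 differences of 1.23, 1.11 and 1.07. Without replicate 2, the highest at position 292683, 0 of the 3 were called.

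The single columns were described by ratios of at least 2-fold, with no test. W303 was at least 2-fold lower than BY4741 wild type at 44 of 511 end NDRs and higher at 0, where 0.848% and 0% of all NDRs were. Its 4 lowest ratios were at HXT17 (-3.75) and at 3 NDRs of VIIL at or near COS12 (-3.43 to -3.54). The H4-WT strain was lower at 71 end NDRs and H4K16Q at 72, where 1.22% and 1.34% of all NDRs were. Both strains had their low levels in the outer 10 kb, with medians of -0.98 in H4-WT and -1.02 in H4K16Q at 0 to 5 kb. H4K16Q was higher at 1 end NDR, and 0.0298% of all NDRs were. H4Q93E was lower at 26 end NDRs and higher at 0, where 0.969% and 0.0149% of the NDRs compared were. Wild type at 32 °C was lower at 18 (0.506%). These ratios share the wild-type libraries at 30 °C, and the reference is the mean of the 16 replicates. Single wild-type replicates varied in the outer part, with medians at 0 to 5 kb from 121 to 473 CPM. End NDRs took 9.09% of the reads in H4-WT, 9.56% in H4K16Q and 9.14% in wild-type replicate 7. Whether these strains lie outside the spread of the wild-type replicates was not tested.

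At 37 °C, sth1-2 was at least 2-fold higher than wild type at 37 °C at 14 end NDRs and lower at 0, where 0.268% and 0.223% of all NDRs were. Sth1 is the ATPase of the chromatin remodeller RSC. Of the 14, 13 lay within 5 kb, and the 4 largest were inside YRF1-1, YRF1-5 and YRF1-6. At position 1074759 inside YRF1-5 on XIIR, sth1-2 had 507 CPM and wild type at 37 °C 146 CPM (log2 ratio 1.79). rsc8-21, which affects another subunit of RSC, had 0 end NDRs past 2-fold, as had rgr1, a Mediator allele, and scc2-4, an allele of the cohesin loader, where 0.0595%, 0.0298% and 0.223% of all NDRs were lower. In scc2-4, 0.0149% were higher. Wild type at 37 °C was 2-fold lower than at 30 °C at 2 end NDRs, both inside YLL067C on XIIL, where 0.0298% of all NDRs were.

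In rtt109d, 1 COS and 1 PAU NDR were called lower, both on VIIL. In diamide the 7 COS NDRs had a median log2 difference of -0.23 and the 16 PAU and DAN NDRs of -0.25, near the -0.20 of all end NDRs, and 0 of these were called. Ribosomal protein genes, which have no NDR at the ends, had 30 of 101 NDRs called higher in diamide, with a median of 0.50. Of 12 NDRs of silencing factor genes (SIR1 to SIR4, the SAS genes, RAP1, RIF1, RIF2, HST1, DOT1 and SET1), 0 were called in ssu72-2, rtt109d, diamide or thiolutin. At most 3.27% of all NDRs were called in 1 direction there, so 0 of 12 is near that share.

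In the authors' deposited gene tables, 394 genes lay within 30 kb of an end. Their log2 score of long over short fragments had a median of 0.28 in wild type over the 265 genes with a score, and that of 4317 other genes was 0.02. The median difference from wild type at the ends was -0.01 in diamide, while it was 0.16 elsewhere. In H4d4-14 it was -0.19 at the ends and -0.29 elsewhere, and in ssu72-2 -0.08 and -0.10. These columns pool the replicates of a group, so the differences have no replicate check.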

How the data were processed

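The authors deposited whole-number counts of reads that span each of 6719 NDRs, not normalised, per the file headers. CASAVA 1.8.2, Bowtie2 and sacCer3 are named in the submitters' processing notes. The sources used here give no counting rule. Columns were matched to samples by name, repeat runs of a replicate and the 4 MNase size fractions of a dose were summed, and 10 columns were not used. Pairs of separate replicates differed beyond counting error (chi-square per degree of freedom at least 1.16). Whether replicates came from separate cultures is not stated in the labels, and p-values cover only the spread among these libraries, which may be technical.

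Counts of 49 replicates or single columns entered 1 fit by group in edgeR 4.0.16 (TMM scaling, filterByExpr, quasi-likelihood test, two-sided) in R 4.3.3. P-values were adjusted over 6719 NDRs at 0.05, and the common dispersion was 0.0297. DESeq2 1.42.0 was the alternative. Single columns were compared by log2 ratios with 0.5 reads added, at 20 reads or more. Ratios of medians used CPM without TMM scaling. The deposited gene tables hold pooled long- and short-fragment signals, whose sum gave read levels (1 added before log2, centred on the median gene), and the authors' 2D-normalised log2 score. The authors' boundary strength is a deposited score used to describe boundaries only. Of the gene tables' 6644 genes, 5901 matched RefSeq names.

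In each replicated comparison, named NDRs were the 8 largest called in each direction with all replicates on 1 side of the wild-type mean. In wild type they were the 6 highest and 6 lowest, and those within 2 kb of the HML and HMR genes. Up to 4 in each direction were named for single columns. Others named in the text (PHO11, HXT17, SAM3) were chosen after their values were seen. The members and lists were chosen with earlier results of these data known. Replicate numbers did not pair the samples: deviations of same-numbered samples had a median correlation of 0.03 (20 pairs). It was 0.12 (21 pairs) for samples with the same number between strain and replicate in the column names, and -0.0067 for the other 347 pairs.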

Additional observations from a re-analysis of the deposited data

Results flagged for a closer look

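A total of 2205 reads over end NDRs in the library made without ligation came from a sample that enters no comparison of groups. They were 33.7% of its reads, while end NDRs took 9.14% to 15.9% of the reads in wild type. The median log2 ratio of 0.94 for genes of chromosome I in ssu72-2 comes from the authors' pooled gene signals, a table outside the NDR counts, where the other groups lay between -0.06 and 0.04 for the same genes.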

How the results depend on the processing

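The counts of end NDRs called changed with the libraries used and the width of the end. Leaving out 1 mutant or treated replicate gave 22 to 103 higher and 1 to 7 lower calls in ssu72-2, 0 to 4 higher and 1 to 22 lower in rtt109d, 0 higher and 1 to 3 lower in diamide, and 0 to 6 higher and 1 to 10 lower in thiolutin. Leaving out wild-type replicate 17 gave 139 higher and 11 lower calls in ssu72-2, 26 lower in diamide, 4 lower in thiolutin and 1 higher in med1d. With the replicate number as a block, there were 48 higher and 3 lower calls in ssu72-2, 0 higher and 4 lower in rtt109d, and 9 lower in diamide. Replicate numbers did not pair the samples. With the number in the column names as a block (an alternative chosen after seeing the data), there were 85 higher and 5 lower calls in med1d, 111 and 1 in H4d4-14, 14 and 20 in rtt109d, 0 and 9 in thiolutin, and 0 and 8 in diamide. DESeq2 gave 0 higher calls in diamide and 1 in med1d, and 0 in rtt109d, where it gave no adjusted p for the 3 NDRs called higher. Against wild type at 32 °C, ssu72-2 had 14 higher and 1 lower. The cause was not tested.

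At ends of 10 kb the counts, fewer NDRs being counted, were 54 higher and 5 lower in ssu72-2, 0 higher in rtt109d, and 0 and 0 in diamide and in thiolutin. At 20 kb they were 0 higher and 10 lower in diamide, 0 and 1 in thiolutin, and 0 higher in rtt109d. At 40 kb they were 3 higher in diamide, 10 higher in thiolutin, 14 lower in ssu72-2, and 1 lower each in H4R23A and rnh201d. Over NDRs without a read in the library made without ligation (chosen after seeing the data), they were 41 higher and 4 lower in ssu72-2 and 5 lower in rtt109d.

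The log2 ratio of end over other NDRs, as a median over NDRs, was larger for narrower ends. At 10 kb it was 1.09 in diamide, 1.49 in thiolutin, 1.76 in med1d, 1.36 in rtt109d, 1.91 in ssu72-2, 1.77 in H4d4-14, 1.23 in H4R23A, 1.06 in rnh201d, 1.63 in rpd3d, 1.29 in top1d and 1.38 in wild type. At 20 kb it was 0.55 in diamide, 0.87 in thiolutin, 1.04 in med1d, 0.71 in rtt109d, 1.02 in ssu72-2, 1.17 in H4d4-14, 0.74 in H4R23A, 0.66 in rnh201d, 0.93 in rpd3d, 0.77 in top1d and 0.84 in wild type. At 40 kb it was 0.18 in diamide, 0.38 in med1d, 0.28 in rtt109d, 0.41 in ssu72-2, 0.35 in H4d4-14, 0.29 in H4R23A, 0.28 in rnh201d, 0.37 in rpd3d and 0.34 in top1d. With means in place of medians it was 0.39 in diamide, 0.65 in med1d, 1.30 in ssu72-2, 0.82 in H4d4-14, 0.60 in H4R23A, 0.62 in rnh201d, 0.77 in rpd3d, 0.69 in top1d and, with the sign turned, -0.15 in rtt109d.

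With a fold of 1.5 for single columns, counts of higher and lower end NDRs were 12 and 15 in wild type at 37 °C, 3 and 1 in rgr1, 4 and 1 in rsc8-21, 17 and 6 in scc2-4, 53 and 6 in sth1-2, 2 and 166 in H4K16Q, 4 and 80 in H4Q93E, 2 and 114 in W303, 3 and 106 in wild type at 32 °C, and 159 and 17 for MNase 1X against 0.25X. H4-WT had 158 lower. Of 368 values with a test of the 41 named NDRs under alternatives, 270 kept their direction and their side of the threshold, 98 kept only the direction and 0 reversed. Distances to the true chromosome ends and the share of repeated sequence were not run, since no genome was used here. Counting error limits values of a few reads, such as those at COS12 in rtt109d.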
